A study of Rattus norvegicus with 84 samples.

Results

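Known miRNAs of brain-derived extracellular vesicles (EVs) were compared between the hNSCs group and the control group at 10 days poststroke. The comparison used the 6 small RNA libraries of the brain at that day, 3 rats per group, of 84 libraries in the study, and the rows of the deposited miRNA count table that carry a rat (rno) miRNA name. These rows numbered 699, of which 350 had enough counts to be tested and 349 did not. Adult male wild-type Sprague-Dawley rats underwent transient occlusion of the middle cerebral artery in both groups. The hNSCs group received human neural stem cells, from 1 fetal cell line, into the common carotid artery on the third day after stroke, and the control group received saline. For comparison, 5 other brain groups of 3 rats each were used: both stroke groups 4 days and 31 days after occlusion, and healthy rats without occlusion. EVs were isolated from a small weighed piece of the frozen ipsilateral hemisphere, and the share of infarct, border and spared tissue in each piece is not given in the sources used here. Levels are from bulk RNA, in which fewer vesicles of a cell type and less of a miRNA per vesicle cannot be told apart.

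miRNAs are RNAs of about the length of a primer that pair with messenger RNAs, chiefly through the seed, bases 2 to 8 from the 5′ end, and lower the output of those messengers. Each is cut from a hairpin whose arms give a 5p and a 3p product, and miRNAs with the same seed form a family with overlapping targets. Cells load miRNAs into EVs, and in the injured brain miR-146a, miR-155, miR-223 and miR-21 are known as miRNAs of activated microglia, infiltrating myeloid cells and reactive tissue, miR-126 of endothelium, miR-219 and miR-338 of oligodendrocytes, and miR-9, miR-124 and miR-128 of neurons and their progenitors.

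The 6 libraries held between 351939 and 1711169 unique molecular identifiers (UMIs, tags that mark a molecule before amplification), of which between 81.6% and 96.2% fell on known miRNAs. Levels are given as CPM, UMIs scaled to a common total of known-miRNA UMIs and corrected for composition by TMM. The replicate 1 and replicate 3 libraries of the hNSCs group were the shallowest, with 336748 and 318504 UMIs on known miRNAs, so that 1 UMI equalled 2.79 and 2.81 CPM there, against 0.656 to 1.45 CPM in the other 4 libraries. Pearson correlations of log2(CPM + 1) over the 350 miRNAs lay between 0.938 and 0.991 for the 15 pairs of libraries. Replicate 2 of the control group stood apart: a chi-square of its counts against each other library, per degree of freedom, was between 87.8 and 157, while the pairs without it lay between 11.2 and 53.9. No pair of libraries was within sampling noise. Known brain miRNAs dominated, with miR-125b-5p, let-7c-5p, let-7a-5p, let-7b-5p and miR-9a-5p as the 5 most abundant.

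The test of the hNSCs group against the control group called no miRNA. With edgeR's quasi-likelihood test, 0 of 350 miRNAs (0%) passed both limits set for a call, a difference of more than 1.5-fold and a p under 0.05 after Benjamini-Hochberg adjustment, and the smallest adjusted p was 0.186. DESeq2 also called 0, and limma on the deposited TPM values called 1, miR-1224. Without the filter on low counts, edgeR called 6, namely miR-122-5p, miR-1224, miR-146a-5p, miR-199a-3p, miR-223-3p and miR-328a-3p. At an unadjusted p under 0.05 there were 22 miRNAs, 8 higher in the hNSCs group (2.29%) and 14 lower (4.00%). The 3 hNSCs libraries lay above all 3 control libraries for 23 miRNAs (6.57%) and below all of them for 13 (3.71%), and 8 miRNAs met both conditions. The median standard error of the log2 fold change was 0.316, which gives a 95% interval reaching 1.58-fold in either direction. The interval stayed within 2-fold for 203 of 350 miRNAs, while for the rest it reached past 2-fold on at least 1 side, so that a difference of that size was within the error there. The fitted change exceeded 2-fold for 6 miRNAs upward and 9 downward.

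**Figure D1:**
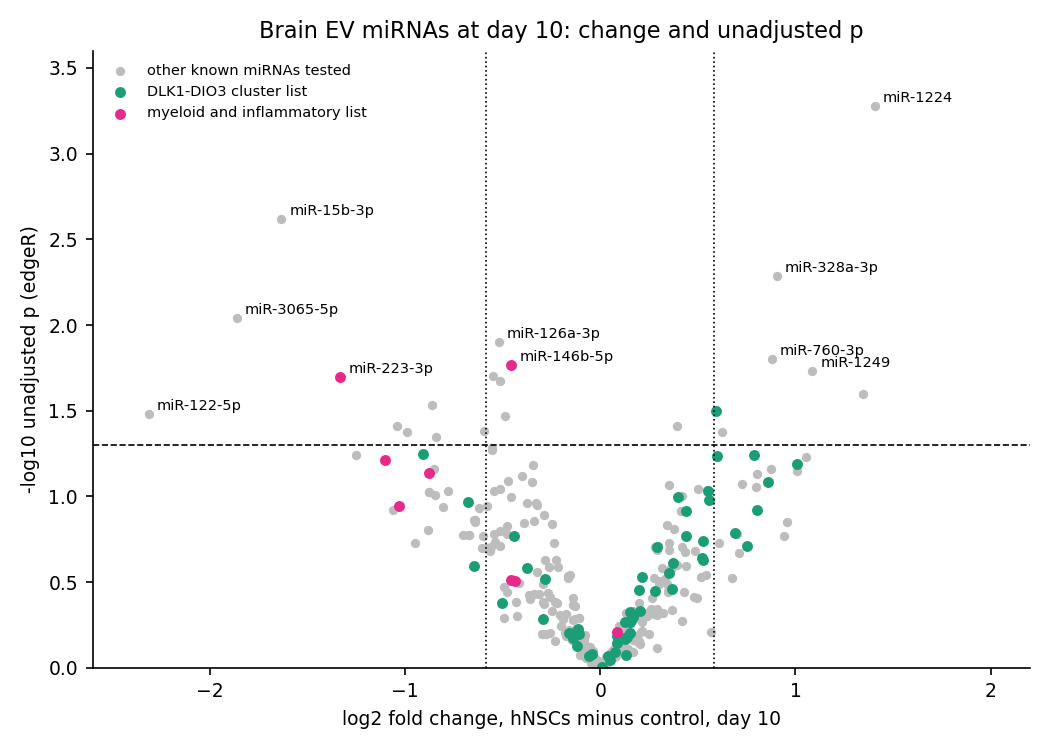
Log2 fold change of the 350 tested miRNAs (hNSCs minus control, x axis) against -log10 of the unadjusted edgeR p (y axis), each point 1 miRNA. The dashed line marks an unadjusted p of 0.05 and the dotted lines 1.5-fold; miR-1224 at 1.41 had the smallest p, and 7 of the 8 miRNAs of the myeloid and inflammatory list lie left of 0. Green points are the 56 members of the DLK1-DIO3 cluster, 40 of them right of 0. Of all 350, 179 lie right of 0 and 171 left.

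The sequences of the miRNAs that led the comparison are shown with the seed in capitals, as deposited by the authors with T for U. The first set holds those whose hNSCs libraries all lay above the control libraries with an unadjusted p under 0.05, and none of them share a seed.
miR-1224: gTGAGGACtggggaggtggag
miR-328a-3p: cTGGCCCTctctgcccttccgt
miR-1249: aCGCCCTTcccccccttcttca
miR-92b-5p: aGGGACGGgacgcggtgcagtgtt
miR-149-5p: tCTGGCTCcgtgtcttcactccc
miR-219a-5p: tGATTGTCcaaacgcaattct
The next set holds the lower miRNAs miR-15b-3p and miR-126a-3p, then miR-15b-5p, the other arm of the miR-15b hairpin, and miR-16-5p, which has the seed of that other arm and not that of miR-15b-3p.
miR-15b-3p: cGAATCATtatttgctgctcta
miR-126a-3p: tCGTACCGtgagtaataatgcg
miR-15b-5p: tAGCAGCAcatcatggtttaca
miR-16-5p: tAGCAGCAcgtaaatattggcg
The third set holds miRNAs of the myeloid and inflammatory list, of which miR-146a-5p and miR-146b-5p share a seed.
miR-146a-5p: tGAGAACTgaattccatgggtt
miR-146b-5p: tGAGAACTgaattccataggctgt
miR-21-5p: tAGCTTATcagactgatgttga
miR-223-3p: tGTCAGTTtgtcaaatacccc
The last pair differs by 1 base, and its members had nearly equal counts in every library, from 1.002 to 1.004 in ratio, so that they cannot be read as separate measurements.
miR-7a-5p: tGGAAGACtagtgattttgttgt
miR-7b: tGGAAGACttgtgattttgttgt
Of the 350 tested miRNAs, 33 pairs differed by at most 1 base over their shared length, and in 18 of these pairs the UMI counts of both members were within a ratio of 0.9 to 1.1 in all 6 libraries. miR-29a-3p and miR-29c-3p, miR-23a-3p and miR-23b-3p, and miR-1-3p and miR-1b are such pairs, whose members are not independent measurements; both members stay in every count and sum given here, so that the 14 lower miRNAs include both miR-23a-3p and miR-23b-3p; how reads that fit both members were assigned is not given in the sources used here. RefSeq gave the same mature sequence for 326 of the 350. On its rat build GRCr8, miR-1224 lies at chr11:93811355-93811375 on the minus strand inside the span of Vwa5b2, miR-15b-3p at chr2:155555235-155555256 on the plus strand inside Smc4 and miR-126a-3p at chr3:29813219-29813240 on the plus strand inside Egfl7, the gene of an endothelial secreted protein.

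Among the miRNAs with higher levels in the hNSCs group, miR-1224, a miRNA cut from a short intron, had the smallest p of all. Its levels were 43.5, 29.4 and 28.9 CPM in the 3 control libraries and 83.6, 79.3 and 107 CPM in the 3 hNSCs libraries. The groups did not overlap, and control replicate 1 was the highest of the controls. The log2 fold change was 1.41 ± 0.34 (SE, 95% interval 0.69 to 2.12) and the adjusted p = 0.186. These levels rest on between 22 and 77 UMIs per library. Leaving out 1 of the 6 libraries at a time gave between 1.27 and 1.61, with a lowest adjusted p of 0.0759.

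miR-328a-3p, whose family is known to target the beta-secretase Bace1, was an abundant miRNA and ranked at 31 of 350. It measured 3210, 3855 and 3701 CPM in the control group and 5715, 6495 and 7924 CPM in the hNSCs group. All hNSCs libraries were above all control libraries, and the spread within either group was smaller than the gap between the group means. The log2 fold change was 0.90 ± 0.29 (SE) with adjusted p = 0.602. miR-328b-3p, an 18-base miRNA with the same seed, had a log2 fold change of 0.05 ± 0.36.

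miR-219a-5p, which promotes the differentiation of oligodendrocyte precursors, measured 1596, 1428 and 1330 CPM in the control group and 2482, 1992 and 2246 CPM in the hNSCs group. The groups did not overlap, with a log2 fold change of 0.63 ± 0.29 and adjusted p = 0.602. The 3p arm of the same family, miR-219a-2-3p, differed by 0.0037 ± 0.15 on the log2 scale, and the difference between the arms was not tested. miR-149-5p measured 933, 942 and 836 CPM in controls and 1303, 1041 and 1221 CPM in the hNSCs group, also apart, with a log2 fold change of 0.39 ± 0.18 (adjusted p = 0.602). This was the smallest change among the 8 miRNAs with groups apart and an unadjusted p under 0.05.

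The other higher miRNAs with groups apart were scarce. miR-1249 measured 60.8, 33.4 and 36.7 CPM in controls and 64.1, 88.5 and 124 CPM in the hNSCs group, a log2 fold change of 1.09 ± 0.43. The highest control and the lowest hNSCs library were close together. miR-92b-5p, the minor arm of a hairpin active in neural progenitors, measured 7.24, 5.34 and 5.25 CPM in controls and 13.9, 19.6 and 8.42 CPM in the hNSCs group (log2 fold change 1.35 ± 0.56), and its lowest hNSCs value was 3 UMIs. The major arm, miR-92b-3p, had a log2 fold change of 0.30 ± 0.30. miR-1306-5p, miR-325-5p, miR-874-5p and miR-671 had mean levels in the hNSCs group between 12.8 and 30.3 CPM, log2 fold changes between 0.73 and 1.01 and no unadjusted p under 0.05. miR-760-3p (log2 fold change 0.88 ± 0.33) and miR-485-3p (0.59 ± 0.26) had an unadjusted p under 0.05 with overlapping groups.

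**Figure D2:**
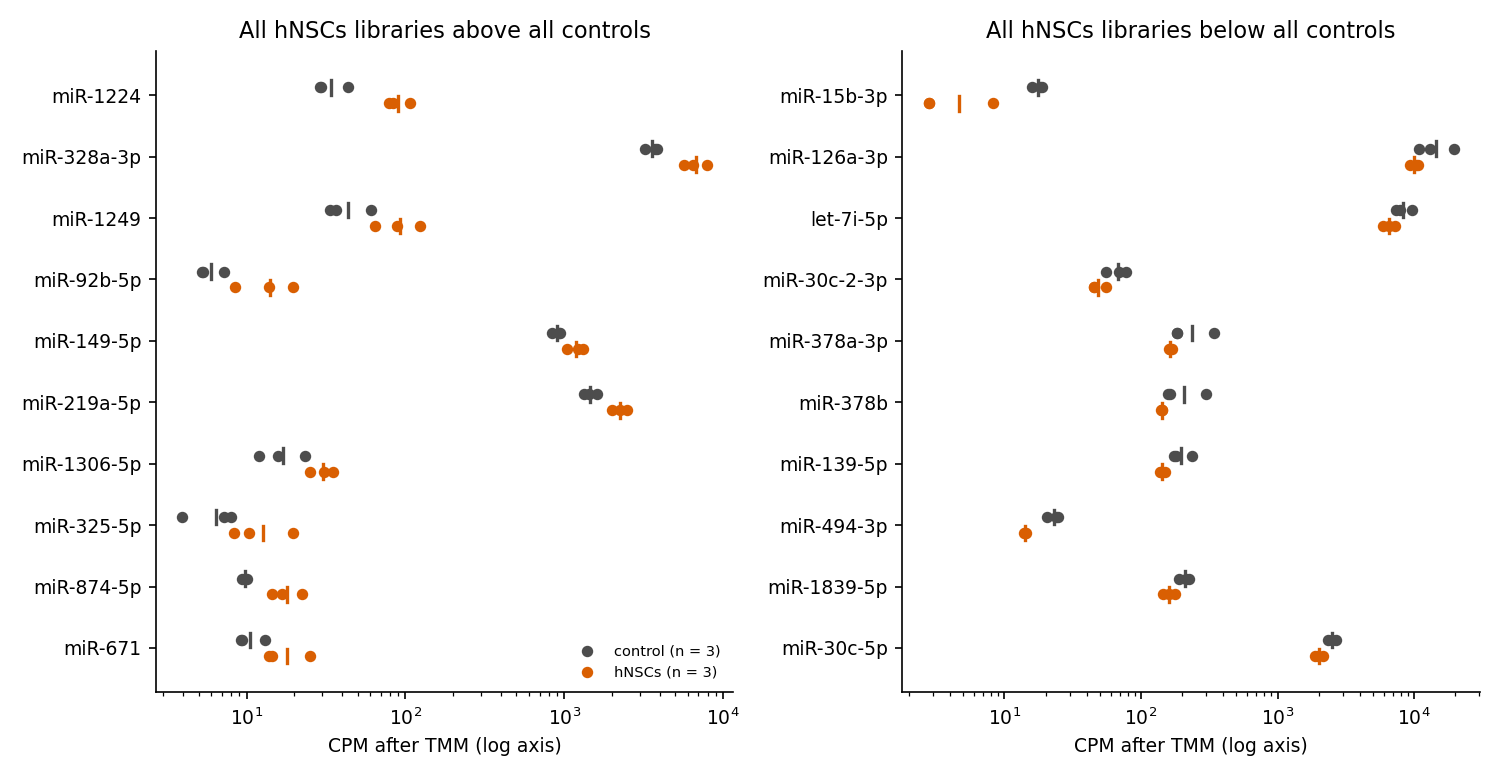
CPM after TMM scaling (log axis) in the 3 control (grey) and 3 hNSCs (orange) libraries at day 10 for the 10 higher and the 10 lower miRNAs with the smallest unadjusted p among those whose groups did not overlap; points are libraries and short bars the group means. The distance between groups was small beside the level for let-7i-5p and miR-30c-5p and larger for miR-1224 and miR-15b-3p.

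Among the miRNAs with lower levels, miR-15b-3p, the minor arm of a hairpin of the miR-15/16 family, which restrains cell cycle and survival genes such as Bcl2, had the smallest p. It measured 18.8, 16.0 and 18.4 CPM in controls and 2.79, 8.23 and 2.81 CPM in the hNSCs group. The groups did not overlap, but the low values of hNSCs replicates 1 and 3 were 1 UMI each, and those 2 libraries were the shallowest. The log2 fold change was −1.63 ± 0.47 (SE) with adjusted p = 0.424. The major arm, miR-15b-5p, had a log2 fold change of 0.0043 ± 0.30. miR-3065-5p measured 4.35, 24.0 and 16.4 CPM in controls and 2.79, 5.15 and 2.81 CPM in the hNSCs group, with a log2 fold change of −1.86 ± 0.63. It also had 1 UMI in each of the same 2 hNSCs libraries, and its groups overlapped, since control replicate 1 held 3 UMIs.

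miR-126a-3p, the main miRNA of endothelial cells, was the most abundant of the leading lower miRNAs. It measured 10843, 19461 and 13039 CPM in controls and 9299, 10646 and 10276 CPM in the hNSCs group. Every hNSCs library was below every control, yet replicate 1 of the control group was only slightly above hNSCs replicate 2. The log2 fold change was −0.52 ± 0.19 (adjusted p = 0.602), and without control replicate 2 it was −0.25. miR-126a-5p, from the same hairpin, had a log2 fold change of −0.35 ± 0.19 with overlapping groups. let-7i-5p (7949, 9700 and 7401 against 6598, 7215 and 5923 CPM) had a log2 fold change of −0.34 ± 0.18, and its groups did not overlap. The other 7 lower miRNAs with groups apart and the smallest p, miR-30c-2-3p, miR-378a-3p, miR-378b, miR-139-5p, miR-494-3p, miR-1839-5p and miR-30c-5p, had log2 fold changes between −0.68 and −0.32 and no unadjusted p under 0.05. miR-378a-3p and miR-378b, which differ by 1 base, were highest in control replicate 2 (341 and 302 CPM), and without that library the log2 fold changes were −0.15 and −0.17.

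Other lower miRNAs had an unadjusted p under 0.05 with overlapping groups, and in all of these control replicate 2 was the highest library. miR-23a-3p, of a cluster with miR-27a and miR-24 that is active in vessels and blood cells, measured 5188, 10718 and 6404 CPM in controls and 4765, 5463 and 5038 CPM in the hNSCs group. Its log2 fold change was −0.55 ± 0.22, and −0.19 without control replicate 2. miR-152-3p, a relative of miR-148 that is known to target Dnmt1, measured 314, 1294 and 700 CPM in controls and 292, 597 and 387 CPM in the hNSCs group, with a log2 fold change of −0.84 ± 0.40. Without control replicate 2 it was −0.25. miR-374-5p, miR-378a-5p and miR-503-5p were scarcer, at no more than 158 CPM in any library, with log2 fold changes of −0.86 ± 0.37, −1.04 ± 0.47 and −0.99 ± 0.46, which were −0.43, −0.36 and −0.53 without that library. None had an adjusted p below 0.602.

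miRNAs of myeloid cells and inflammation had a median below 0 and differed widely among the control rats. None of the 8 tested members of the list was called, 7 had a log2 fold change below 0 and 2 had an unadjusted p under 0.05, beside 171 below 0 and 14 lower at that p (4.00%) among all 350 miRNAs. The list median was −0.67, against 0.0046 for all 350. Without the filter on low counts, miR-146a-5p and miR-223-3p were called, and 4 of the 8 had an unadjusted p under 0.05. Their summed level was 7657, 30792 and 19712 CPM in the 3 control libraries and 8740, 18010 and 10203 CPM in the hNSCs libraries. The groups overlapped: control replicate 1 had the lowest sum of all 6 libraries and control replicate 2 the highest.

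miR-146a-5p, induced by NF-kappaB and a brake on Traf6 and Irak1, measured 881, 6934 and 4274 CPM in controls and 1022, 3332 and 1246 CPM in the hNSCs group (log2 fold change −1.10 ± 0.56). miR-21-5p, a miRNA of reactive and injured tissue, measured 2300, 15421 and 9024 CPM against 2448, 8218 and 3868 CPM (−0.88 ± 0.47). miR-223-3p, of neutrophils and macrophages, measured 76.8, 643 and 212 CPM against 86.3, 208 and 58.9 CPM (−1.33 ± 0.53, adjusted p = 0.602). For all 3, control replicate 1 was as low as the lower hNSCs libraries, and the range within the control group exceeded the difference between the group means.

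miR-146b-5p, with the seed of miR-146a-5p but a different gene, had the smallest p of the list. It measured 815, 1216 and 1071 CPM in controls and 732, 862 and 662 CPM in the hNSCs group (−0.46 ± 0.18, adjusted p = 0.602), with hNSCs replicate 2 above control replicate 1. miR-155-5p, of activated macrophages, had a log2 fold change of −1.03 ± 0.62, and the arms of the blood-cell hairpin miR-142 had −0.46 ± 0.44 (3p) and −0.44 ± 0.42 (5p). miR-150-5p, a lymphocyte miRNA, was the member above 0 (0.09 ± 0.17).

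The list's median depended on single libraries. Without control replicate 1 the list median was −1.09 and 6 of 8 members had an unadjusted p under 0.05, and without control replicate 2 it was −0.24 with no such member. Without hNSCs replicate 2 it was −1.26, with 6 such members. No member was called in these 3 fits. The mRNA libraries of the same rats were read beside these values for 14 myeloid genes (among them Ptprc, Csf1r, C1qa, Cd68 and Spp1), a list added after the miRNA values were seen. Their summed CPM was 36.1, 509 and 145 in the control libraries and 63.5, 122 and 17.8 in the hNSCs libraries, again lowest among controls in replicate 1 and highest in replicate 2. The mean log2(CPM + 1) of the genes differed by −1.22 between the groups (exact permutation test, two-sided p = 0.4, smallest possible 0.1). The mRNA library of hNSCs replicate 3 had the lowest mean of the 6 for this list and also for the neuron, oligodendrocyte, endothelial and muscle lists. The part of myeloid RNA in the miRNA differences was not tested.

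**Figure D3:**
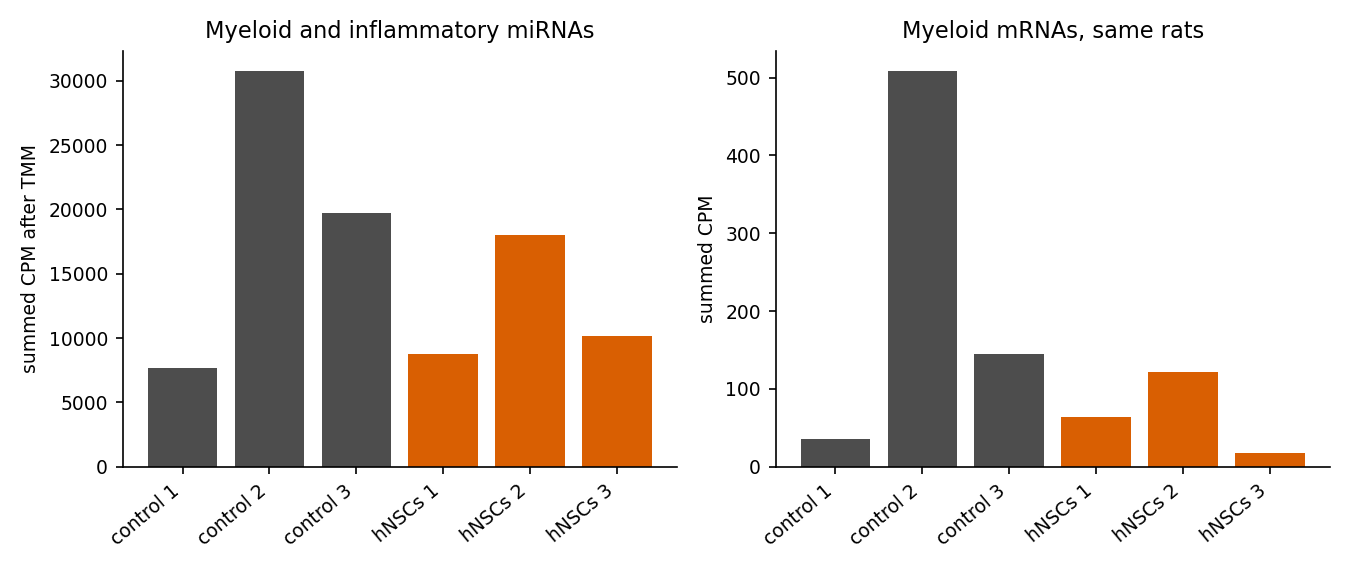
Summed CPM of the 8 tested myeloid and inflammatory miRNAs (left, after TMM scaling) and of 14 myeloid mRNAs in the mRNA libraries of the same rats (right), 1 bar per library at day 10, control grey and hNSCs orange. Control replicate 2 is the highest bar on both sides (30792 and 509 CPM) and the groups overlap on both.

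Control replicate 2 also stood out in families of miRNAs with 1 seed. The 6 tested members of the miR-30 seed (GTAAACA), abundant in brain and other tissues, summed to 96225, 164504 and 96609 CPM in controls and 96088, 92993 and 100140 CPM in the hNSCs group. In this sum only control replicate 2 was high, and the other 5 libraries lay within a narrow range. The median log2 fold change of the 6 members was −0.31, with 5 below 0 and no unadjusted p under 0.05. For 2 of the 6 every hNSCs library was below every control, beside 13 of all 350 (3.71%). These were miR-30c-5p (2348 to 2700 CPM in controls, 1895 to 2142 CPM in the hNSCs group) and miR-30b-5p (190 to 274 against 132 to 159 CPM). The 6 members of the miR-15/16 seed (AGCAGCA) summed to 10462, 25985 and 22694 CPM in controls and 10383, 17045 and 12339 CPM in the hNSCs group, nearly all of it miR-16-5p (log2 fold change −0.60 ± 0.27, unadjusted p under 0.05). Here control replicates 2 and 3 were high and control replicate 1 was at the level of hNSCs replicate 1. The 9 let-7 miRNAs, which share the seed GAGGTAG and mark differentiated cells, had a median of −0.05, with 7 below 0 and none with an unadjusted p under 0.05, though 4 were below 0 when scaled to library totals or to the deposited TPM and 3 with predicted miRNAs kept (median 0.11). The 4 members of the miR-25/92 seed (ATTGCAC) split, with miR-25-3p at −0.49 ± 0.21 (unadjusted p under 0.05) and a family median of −0.13. Without control replicate 2, miR-25-3p was at −0.18 and miR-16-5p at −0.34, and without control replicate 1 miR-16-5p was at −0.91. All 6 tested members of the proliferation-linked miR-17 list were below 0, with a median of −0.32 and no unadjusted p under 0.05. That list is not 1 seed family. It holds miR-17-5p, miR-20a-5p and miR-93-5p (seed AAAGTGC, median −0.41), the near-identical pair miR-19a-3p and miR-19b-3p (GTGCAAA), and miR-92a-3p, counted above under ATTGCAC. When scaled to library totals, to the deposited TPM or with predicted miRNAs kept, 4 of 6 were below 0. Without control replicate 2 the list median was 0.05, with 2 of 6 below 0, and without control replicate 1 it was −0.60.

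The DLK1-DIO3 cluster, an imprinted locus whose many miRNAs are expressed mainly in neurons, had a median above 0. Of 56 tested members, 40 were above 0 and 16 below, beside 179 above and 171 below of all 350. The median was 0.15, members ranged from −0.91 to 1.01, and none was called. Groups were apart for 2 higher members and 1 lower, beside 23 and 13 of all 350. The lower one was miR-494-3p (20.3 to 24.6 CPM in controls, 13.9 to 14.4 CPM in the hNSCs group). Only miR-485-3p had an unadjusted p under 0.05. miR-434-3p measured 7589, 5597 and 5515 CPM in controls and 8352, 6688 and 7854 CPM in the hNSCs group (0.29 ± 0.22), and miR-127-3p 5033, 3004 and 3557 CPM against 4776, 4413 and 4267 CPM (0.21 ± 0.20). Both overlapped between groups, with control replicate 1 among the hNSCs values. Without control replicate 2 the cluster's median was 0.01 with 27 of 56 below 0, and without control replicate 1 it was 0.29. With the deposited TPM in limma and with predicted miRNAs kept, the cluster's median was 0.30 and 0.28, while the median of all miRNAs was 0.13 and 0.15.

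The neuron list, which shares miR-134-5p with that cluster, showed little difference. The 21 tested members of the neuron list had a median of 0.0093 (between −0.06 and 0.08 with libraries left out in turn), ranged from −0.22 to 0.29 and included no unadjusted p under 0.05. miR-9a-5p measured 68132, 52900 and 59267 CPM in controls and 61996, 57942 and 54443 CPM in the hNSCs group (−0.05 ± 0.19, 95% interval −0.45 to 0.35), and miR-128-3p had a log2 fold change of −0.02 ± 0.20. miR-124-3p measured 3069, 1650 and 2491 CPM against 2955, 2359 and 2459 CPM (0.11 ± 0.23). Groups overlapped for every member. The neuron mRNA list (9 genes, among them Snap25 and Syt1) differed by −0.06 in mean log2(CPM + 1) in the mRNA libraries of the same rats (exact permutation test, two-sided p = 1.0).

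The remaining cell-type lists were small. The 3 tested oligodendrocyte miRNAs had a median of 0.20, which is the value of miR-338-3p (0.20 ± 0.24) and was 0.044 without control replicate 1. The 2 arms of endothelial miR-126a had a median of −0.43, which was −0.20 without control replicate 2. The 4 smooth muscle and pericyte miRNAs (miR-143 and miR-145) had a median of −0.17 and no unadjusted p under 0.05, and without control replicate 2 the median was 0.02 with 2 of 4 below 0. The 3 tested red cell miRNAs were above 0 with a median of 0.71, led by miR-144-5p with 11.6, 17.4 and 7.87 CPM in controls and 44.6, 18.5 and 14.03 CPM in the hNSCs group (log2 fold change 1.05 ± 0.53), and miR-451-5p differed by 0.20 ± 0.57. The 8 tested miRNAs of ependyma and choroid plexus had a median of 0.24 (0.39 without control replicate 1 or hNSCs replicate 2), with miR-204-5p at 0.43 ± 0.34 and miR-34c-5p at 0.36 ± 0.31.

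miR-122-5p, the hepatocyte miRNA and the only liver miRNA tested, had the lowest fitted log2 fold change of the 350. It measured 39.1, 327 and 39.4 CPM in controls and 2.79, 28.8 and 47.7 CPM in the hNSCs group (−2.31 ± 1.01, adjusted p = 0.602). One control library held most of it and the groups overlapped, and without control replicate 2 the log2 fold change was −0.55. Muscle miRNAs were present at a similar level in every library, with a sum over 6 members of 1134, 1304 and 1449 CPM in controls and 1092, 1174 and 1538 CPM in the hNSCs group, a median of 0.04 and no unadjusted p under 0.05. That median was −0.05 without control replicate 2 and −0.17 without hNSCs replicate 3. Of 15 muscle mRNAs, 8 had no read in the 6 mRNA libraries, and the rest summed to between 0 and 9.36 CPM (difference −0.10 in mean log2(CPM + 1), exact permutation test, two-sided p = 0.6). The endothelial and oligodendrocyte mRNA lists, also added after the miRNA values were seen, differed by −0.65 (p = 0.4) and −0.64 (p = 0.6) in exact permutation tests, with hNSCs replicate 3 lowest in both.

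None of the 10 most abundant miRNAs had an unadjusted p under 0.05. The 10 most abundant took between 57.3% and 60.4% of known-miRNA UMIs in each library. miR-125b-5p, a miRNA of neural progenitors and glia, measured 86183, 92932 and 93760 CPM in controls and 84171, 91600 and 89233 CPM in the hNSCs group (−0.04 ± 0.16, 95% interval −0.38 to 0.30). The other 9 had log2 fold changes between −0.40 and 0.13. The lowest was that of miR-30d-5p, with means of 37402 CPM in controls, where a library reached 54762 CPM, and 28375 CPM in the hNSCs group. Of the 18 miRNAs that the study names in connection with hNSCs, 17 were tested, with a median of −0.02, and 1, miR-16-5p, had an unadjusted p under 0.05. Part of this list was chosen by the study on samples of this series, so that it is not independent evidence of a direction. Its median was between −0.10 and 0.07 with libraries left out in turn. For neuronal processes, the paper's network stresses less miR-30b-5p, more miR-204-5p and more miR-325-3p. At day 10 miR-30b-5p was lower with groups apart (190 to 274 CPM in controls, 132 to 159 CPM in the hNSCs group). It had no unadjusted p under 0.05. miR-204-5p was higher with overlapping groups (1035 to 2037 against 1768 to 2509 CPM). The list's 1 higher member with groups apart was miR-34c-5p (268 to 290 against 295 to 421 CPM), and its 1 lower member was miR-30b-5p. Among all 350 miRNAs, groups were apart for 23 higher (6.57%) and 13 lower (3.71%). miR-325-3p measured 43.5, 53.4 and 43.3 CPM in controls and 19.5, 40.1 and 67.4 CPM in the hNSCs group (−0.15 ± 0.36). Its hNSCs values lay on both sides of the controls.

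The transplanted cells were human, and a miRNA of identical sequence in both species cannot be assigned to either. By sequence, 145 of the 350 tested miRNAs were identical to a human miRNA in the study's homologue table, 74 had a listed human counterpart of a different sequence and 131 had none listed. The study made that table from miRNAs it found in EVs of hNSCs, so a miRNA without a listed counterpart can still have a human one. Identity was required over the full length, so sequences that differ only at an end counted as different. The identical miRNAs carried between 91.0% and 92.0% of the tested CPM in each of the 6 libraries. Their median log2 fold change was −0.03, that of the counterparts with another sequence was 0.01 and that of miRNAs without a listed counterpart was 0.08. miR-328a-3p, miR-219a-5p, miR-149-5p, miR-15b-3p and miR-126a-3p were identical to the human sequence, and miR-1224 was not.

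The size of the hNSCs effect at day 10 was set against that at the other days. The difference of effects between day 10 and day 4, an interaction term of the same edgeR model, called 0 of 350 miRNAs (0%), with 12 (3.43%) at an unadjusted p under 0.05, and DESeq2 also called 0. Between day 10 and day 31 it called 0 (0%), with 14 (4.00%) at an unadjusted p under 0.05, and DESeq2 called 0. miR-1224 had log2 fold changes of −0.15 ± 0.33 at day 4 and −0.16 ± 0.33 at day 31, and its effect at day 10 was larger by 1.55 (adjusted p = 0.966) and 1.57 (adjusted p = 0.851). miR-328a-3p had 0.21 ± 0.29 at both other days, a difference of 0.70 and 0.69 with no unadjusted p under 0.05. miR-219a-5p had 0.16 ± 0.29 at day 4 and −0.26 ± 0.29 at day 31. miR-15b-3p had −0.84 ± 0.39 at day 4 and 0.23 ± 0.47 at day 31. No difference between days was called for any miRNA.

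**Figure D4:**
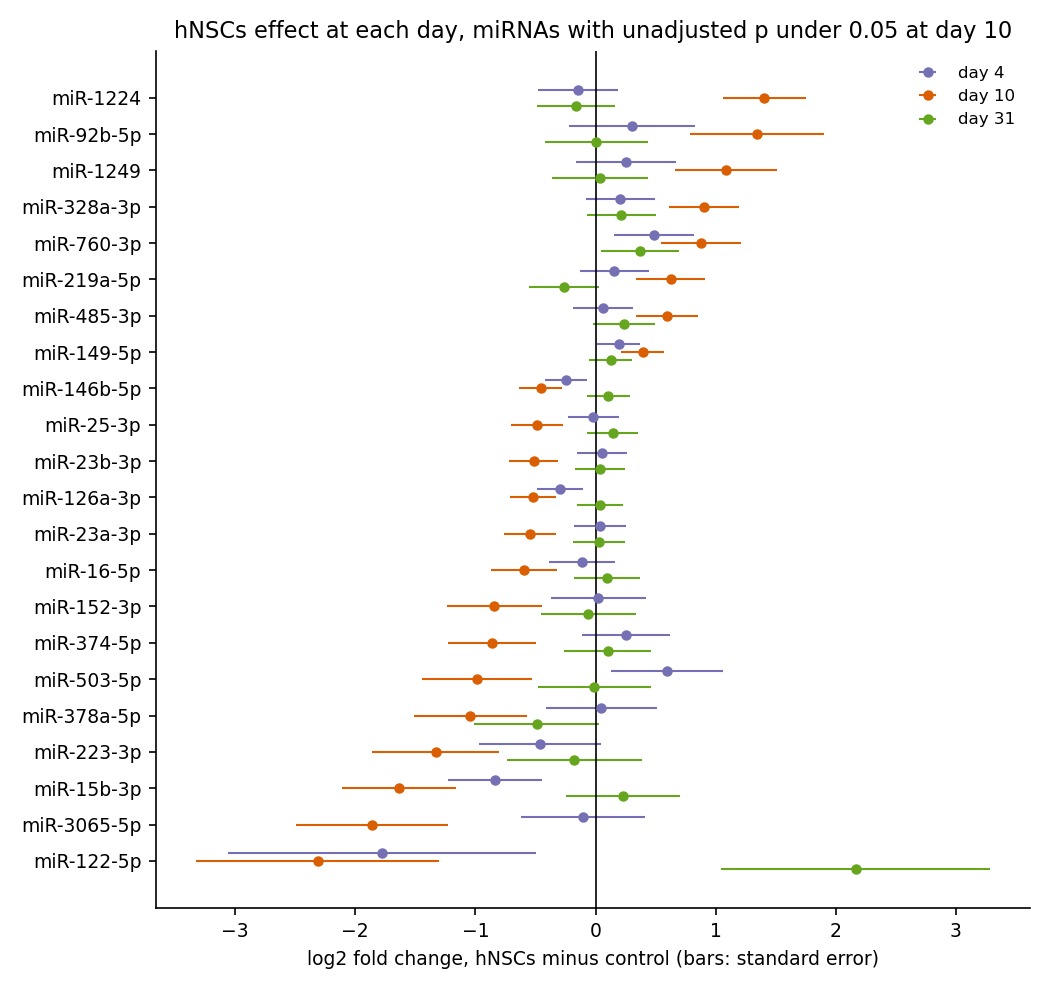
Log2 fold change, hNSCs minus control, at day 4 (purple), day 10 (orange) and day 31 (green) with bars of 1 standard error, for the 22 miRNAs with an unadjusted p under 0.05 at day 10. These miRNAs were chosen on day 10; miR-1224 lies at 1.41 on day 10 and near −0.15 on the other days, and miR-3065-5p had no UMI in the day 31 libraries and has no point there.

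miR-1224 had a mean of 33.9 ± 8.3 CPM (SD, n = 3) in controls at day 10, the lowest mean of the 7 groups, and 89.8 ± 14.7 CPM in the hNSCs group, beside 96.2 ± 48.0 CPM in healthy rats, 82.7 ± 26.1 CPM in controls at day 4 and 104 ± 30.5 CPM in controls at day 31. The control group at day 10 was below the healthy group by 1.54 ± 0.34 on the log2 scale (adjusted p = 0.0055), in a comparison that shares its control libraries with the one above. miR-328a-3p was also lowest in controls at day 10, with 3589 ± 337 CPM in controls at day 10 and group means between 5249 and 6711 CPM elsewhere, though a healthy library measured 3111 CPM and its difference from healthy rats was not called (−0.65 ± 0.29, adjusted p = 0.101). miR-126a-3p was lowest in the hNSCs group at day 10 (10074 ± 696 CPM) and highest in both groups at day 31 (20899 ± 1119 CPM in controls and 21490 ± 2989 CPM in the hNSCs group). The other arm, miR-126a-5p, was instead lowest at day 31, with means of 983 CPM in controls and 1038 CPM in the hNSCs group. It was highest in controls at day 4 (2255 CPM). The reason for the difference between the arms was not tested.

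More miRNAs were called for stroke without cells. In controls at day 10 against healthy rats, 68 of 350 miRNAs (19.4%) were called, 39 higher and 29 lower. Of the myeloid and inflammatory list, 6 of 8 were called higher, with miR-146a-5p at 3.06 ± 0.60 (adjusted p = 0.0029) and miR-21-5p at 2.34 ± 0.49 (adjusted p = 0.0033) in log2 fold change, and 12 of the 56 DLK1-DIO3 miRNAs were called lower and none higher. The comparison with healthy rats shares its control libraries, replicate 2 among them, with the hNSCs comparison. Opposite signs in these comparisons are therefore not independent. miR-21-5p had means of 1763 ± 405 CPM in healthy rats, 11868 ± 2276 CPM in controls at day 4, 8915 ± 6561 CPM at day 10 and 1758 ± 411 CPM at day 31, and the hNSCs group had 4845 ± 3006 CPM at day 10. The SD of the controls at day 10 was the largest of the 7 groups for miR-21-5p and miR-146a-5p.

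**Figure D5:**
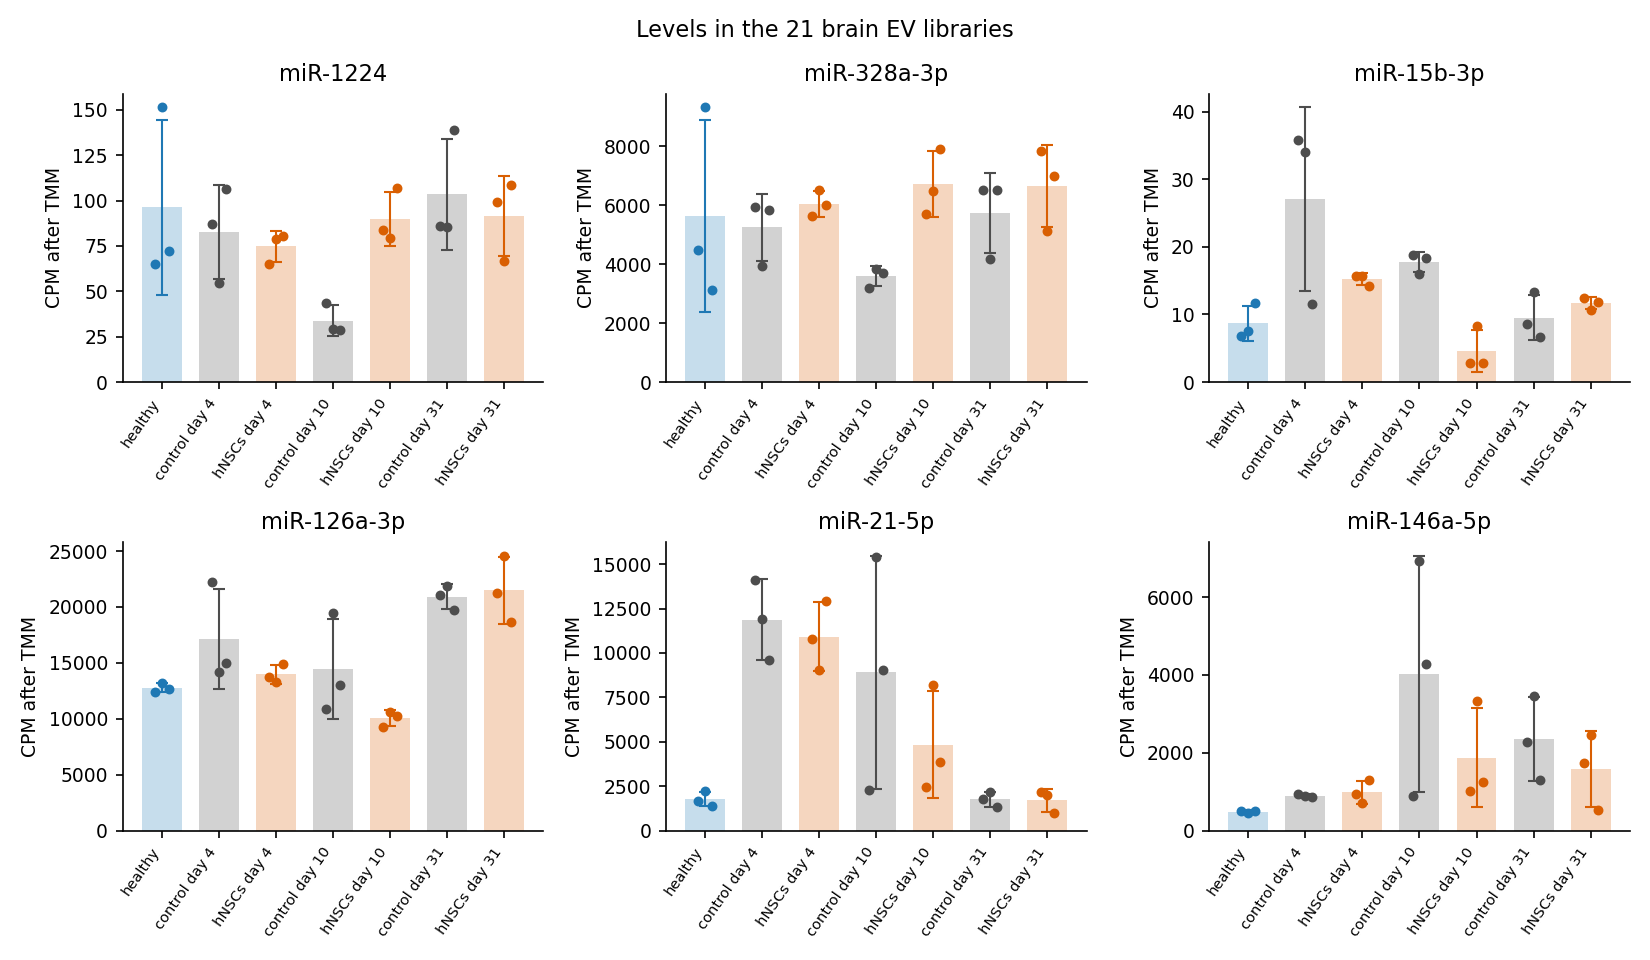
CPM after TMM scaling of 6 miRNAs in the 21 brain EV libraries by group (healthy blue, control grey, hNSCs orange); bars are means, error bars SDs and points the 3 libraries of a group. miR-1224 is lowest in controls at day 10 (33.9 CPM), and controls at day 10 spread widest for miR-21-5p and miR-146a-5p.

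A set of stroke miRNAs drawn from libraries outside this comparison was also described, a choice made after the values were seen. Controls at day 4 against healthy rats gave 51 called miRNAs (14.6%), 27 higher and 24 lower. At day 10, 17 of the 27 had a log2 fold change below 0 in the hNSCs group, with a median of −0.26 and 4 at an unadjusted p under 0.05, beside 171 of all 350 below 0, a median of 0.0046 and 22 at that p. Of the 24 lower ones, 15 were above 0, beside 179 of all 350, with a median of 0.10 and none at an unadjusted p under 0.05. The spread within groups was wider in controls: the median SD of log2(CPM + 1) over the 350 miRNAs was 0.35 in controls and 0.27 in the hNSCs group, and the SD was larger in controls for 219 of 350.

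In plasma EVs of the same rats at day 10, 3 of 309 tested miRNAs (0.971%) were called, all higher in the hNSCs group and all of the muscle list, and 2 of the 3, miR-1-3p and miR-1b, are a near-identical pair and not independent calls. miR-206-3p, miR-1-3p and miR-1b had log2 fold changes of 3.66, 2.86 and 2.84 in plasma, beside −0.16, 0.10 and 0.08 in brain. miR-328a-3p had −1.16 ± 0.47 in plasma (adjusted p = 0.304), miR-126a-3p −0.25 ± 0.68 and miR-219a-5p 0.35 ± 0.65, while miR-1224 was not tested there for low counts.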

How the data were processed

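Group, tissue, day and rat of each library were taken from the sample labels. EV RNA of each rat was made into small RNA libraries with UMIs (QIAseq) and total RNA libraries (SMARTer). The deposited miRNA counts are UMI counts per miRNA without normalization. The authors kept short reads, removed other RNA classes and counted miRBase and predicted miRNAs. The deposited TPM values are the authors' UMI counts relative to the library total of known and predicted miRNAs, and served in the limma alternatives. The deposited mRNA counts are the authors' reads per gene, made from an alignment to the rat genome, and carry no UMIs, so limits from low counts cover counting error only. The deposited FPKM values were not used. Mature sequences were read from the deposited sequence list, with positions from RefSeq (GRCr8). 

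Known miRNAs (699, with 4790 predicted ones left out) entered edgeR 4.0.16 (R 4.3.3), with TMM factors, filterByExpr, and glmQLFit and glmQLFTest in 1 model of the 7 brain groups (21 libraries), with contrasts for day 10 and for the differences between days. Plasma was fitted likewise. Calls needed a difference of more than 1.5-fold and a p under 0.05 after Benjamini-Hochberg adjustment over all miRNAs tested. Standard errors were derived from the same fit, as the absolute log2 fold change divided by the square root of the F statistic. The 95% intervals were built from these with the t distribution. mRNA lists were compared as mean log2(CPM + 1) with exact permutation tests over 3 against 3 rats. The pipeline was tested on simulated counts. Alternatives were other size factors, DESeq2 1.42.0, limma-trend (3.58.1) with log2(TPM + 1) or log2(TPM + 0.1) as input, no filter or a mean TPM over 5, only the 6 libraries, the replicate number as a block, predicted miRNAs kept, muscle miRNAs left out, an unadjusted p, and each library left out in turn. Python with numpy, pandas and scipy made the other summaries.

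The miRNAs named are the 10 higher and 10 lower with the smallest p among those whose groups do not overlap, the 10 most abundant, up to 4 abundant members of each list, list members with an unadjusted p under 0.05, and those the study names, with other arms and seed relatives. Other miRNAs with an unadjusted p under 0.05 were named after their values were seen. The members and lists were chosen with earlier results of these data known. The labels do not say that same-numbered rats of different groups were paired. The p-values measure the spread between rats of 1 experiment.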

Additional observations from a re-analysis of the deposited data

How the results depend on the processing

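The count of called miRNAs at day 10 was 0 with RLE size factors, library totals only, DESeq2, a mean TPM over 5, only the 6 libraries, predicted miRNAs kept and muscle miRNAs left out. It was 1 with limma on log2(TPM + 1) and 1 on log2(TPM + 0.1), in both cases miR-1224 (adjusted p = 0.0492 and 0.0477), and 6 without a filter on low counts, namely miR-122-5p, miR-1224, miR-146a-5p, miR-199a-3p, miR-223-3p and miR-328a-3p. An unadjusted p under 0.05 with the fold limit gave 16. Leaving out each library in turn gave between 0 and 0 calls, while the miRNAs at an unadjusted p under 0.05 numbered 27 higher and 47 lower without control replicate 1, 5 and 3 without control replicate 2, and 15 and 33 without hNSCs replicate 2. For the difference from day 31, the fit without a filter called 2, miR-122-5p and miR-183-5p. The cause of these changes was not tested.

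Rats with the same replicate number did not pair throughout (correlations of their deviations from the group means of 0.36, 0.51 and −0.11), and with a replicate block the counts of called miRNAs were 0 for day 10 and 0 for each difference between days, with 13 higher and 22 lower at an unadjusted p under 0.05 for day 10. Of the values of 43 single miRNAs (the leading miRNAs, those with an unadjusted p under 0.05 and the myeloid, endothelial and oligodendrocyte lists), 673 kept their direction and side of the threshold, 7 became called and 5 changed sign. With none called in the main test, this tally scored only calls and signs and does not measure stability of size. With libraries left out in turn, miR-21-5p ranged from −1.50 to −0.22 and miR-223-3p from −2.09 to −0.25. The sign of miR-219a-2-3p changed with RLE (−0.023), DESeq2 (−0.023) and without control replicate 1 (−0.0025) or hNSCs replicate 3 (−0.066), and it ranged from −0.066 to 0.050 with libraries left out in turn. miR-142-3p ranged from −1.02 to 0.015, the latter without control replicate 2. The median of all miRNAs moved to 0.13 with limma on TPM, where 227 of 350 were above 0 against 179 in the main test, and to 0.15 with predicted miRNAs kept. The depth of hNSCs replicates 1 and 3 limits miRNAs under about 8.4 CPM, the level of 3 UMIs there.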
